A study of Mus musculus with 8 samples.

Results

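The expression of 42 interferon-response genes was examined in RNA sequenced from mouse uterine epithelium, in a comparison of conditional knockout (cKO) mice with control mice. The genes were taken by name, and all 42 were found among the 24346 gene symbols of the tables and among the 11315 genes expressed highly enough to be tested. The cKO mice were Smad2 flox/flox; Smad3 flox/flox; Pgr-cre, and 5 cKO libraries were compared with 3 control libraries. The Smad2 allele is floxed around exons 9 and 10 and the Smad3 allele around exons 2 and 3, and Cre is expressed from a knock-in at the progesterone receptor gene. Per the labels, this Cre acts after birth in uterus, ovary, oviduct, mammary gland and pituitary, so the deletion is not limited to the epithelium. All mice shared a mixed C57BL/6/129S6/SvEv background. For the control mice the labels give no genotype beyond the word control, and they give neither ages, nor cycle stages, nor a method for isolating the epithelium. They also leave unsaid whether the libraries stem from different animals, and p-values then measure no more than the spread between libraries.

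Interferons are cytokines that cells release after sensing foreign nucleic acid, and that neighbouring cells read through surface receptors. Type I and type III interferons activate the kinases JAK1 and TYK2 and a transcription factor complex that includes STAT2 and IRF9 and binds the interferon-stimulated response element, whereas interferon gamma acts at gamma-activated sequences. In the female reproductive tract, the epithelium also makes interferon epsilon without infection, under hormonal control. SMAD2 and SMAD3 transmit signals of the TGF-beta and activin branch and are not part of the canonical interferon pathway.

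Levels are FPKM (sequenced fragments normalized for transcript length and for the fragments mapped in the library), summed over the transcripts of a gene and scaled between libraries. The depth that the FPKM confidence bounds imply lay between 42900000 and 53900000 mapped fragments per library. Smad2 was at 3.58 ± 0.378 FPKM in cKO and 6.07 ± 0.342 FPKM in control libraries (SD, n = 5 and 3), and no cKO library reached a control value. Smad3 was at 30.7 ± 8.97 FPKM in cKO and 28.2 ± 3.07 FPKM in control libraries. Whole-gene FPKM does not separate the deleted exons from the rest of the transcript. The epithelial label was matched by high levels of Epcam, at 455 ± 58.3 FPKM in cKO and 478 ± 12.7 FPKM in control libraries. The libraries also held RNA of other cells. The sum of 9 neutrophil markers ranged from 309 to 1993 FPKM in cKO and from 213 to 413 FPKM in control libraries. Most of it was S100a8 and S100a9, with mean log2(scaled FPKM + 1) of 8.29 and 9.49 in cKO and 5.90 and 7.66 in control libraries. The other neutrophil markers tested averaged at most 4.19 in cKO and 3.00 in control libraries on that scale. The sum of 8 smooth muscle markers ranged from 18.1 to 129 FPKM in cKO and from 66.7 to 384 FPKM in control libraries, with control 1 at the top. All 8 had negative log2 fold changes (cKO minus control, median -1.05), as had all 10 stromal fibroblast markers tested (median -0.78). Only Nr2f2, a fibroblast marker, had an adjusted p below 0.05 among these (0.0175, limma). In such bulk RNA, a change in the number of cells and a change in RNA per cell cannot be told apart. cKO 1 and cKO 2 carry titles from a different number series than the other 6 libraries, and no control has a title from that series.

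Of the 42 interferon-response genes, 5 rose and 1 fell in cKO epithelium, and the 3 interferon-induced transmembrane genes, Ifitm1, Ifitm2 and Ifitm3, were all among those that rose. Rsad2 and Isg20 also rose, and Ifi27 fell. The remaining 36 genes, which include most of the textbook interferon signature (Ifit, Oas, Mx, Isg15 and Irf genes), did not pass the test. Genes were called at a Benjamini-Hochberg adjusted p below 0.05 in limma's test over all 11315 genes. The 6 called genes make 14.3% of the 42, beside 14.3% of all tested genes called in either direction. The 5 that rose make 11.9% of the 42, beside 7.27% of all tested genes that rose, and the 1 that fell makes 2.38%, beside 6.98% that fell. The share of interferon-response genes called was therefore that of the background. The median log2 fold change (cKO minus control) was 0.20 over the 42 genes and -0.005 over all tested genes, and 29 of the 42 (69%) had a positive value, beside 49.4% of all tested genes. With TPM (FPKM rescaled to one total per library), 21 of the 42 were positive (50%), beside 29.5% of all tested genes. Over all genes, 823 rose and 790 fell, and with TPM 510 rose and 1662 fell. The median of the 42 genes was 0.002 with TPM, 0.07 without cKO 4 and -0.07 with the level of stromal and muscle markers as a term in the fit.

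**Figure D1:**
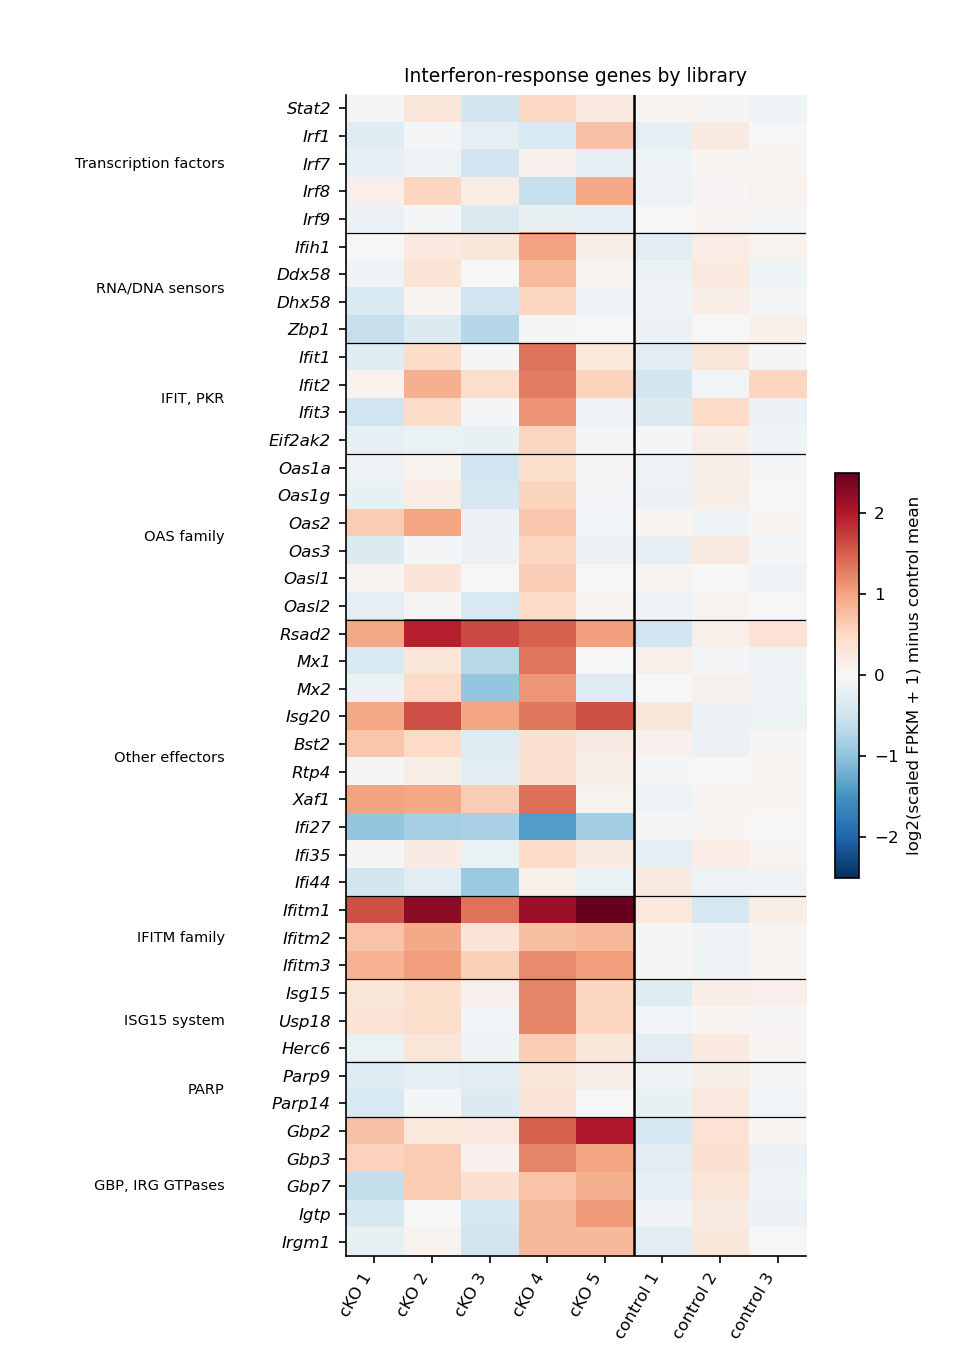
Each row is an interferon-response gene and each column a library, with cKO libraries left of control libraries. Colour gives log2(scaled FPKM + 1) minus the control mean of that gene, on a scale between -2.5 and 2.5. The 3 Ifitm genes, Rsad2 and Isg20 are red in all 5 cKO libraries and Ifi27 is blue in all 5, while most other rows are red mainly in cKO 4.

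The IFITM proteins sit in cell membranes and hinder the fusion of enveloped viruses with the cell. Ifitm1 was at 744, 1177, 629.7, 1107 and 1412 FPKM in cKO libraries 1 to 5, against 296, 180.2 and 279 FPKM in control libraries 1 to 3. The lowest cKO library was above the highest control library, by more than the spread among the controls. The means were 1014 ± 322 FPKM in cKO and 252 ± 62.5 FPKM in control libraries, which gave a log2 fold change of 1.98 ± 0.29 (SE; adjusted p = 0.00449, limma). Ifitm3, the most abundant of the 42 genes, was at 1795, 2052, 1503, 2236 and 2037 FPKM in cKO libraries, against 1008, 923 and 1040 FPKM in control libraries. Every cKO library again lay above every control library, and the log2 fold change was 0.95 ± 0.17 (adjusted p = 0.0105, limma). Ifitm2 was at 504, 589, 379, 513 and 542 FPKM in cKO libraries, against 312, 285 and 318 FPKM in control libraries. These groups did not overlap either, with cKO 3 nearest to the controls, and the log2 fold change was 0.71 ± 0.16 (adjusted p = 0.0197, limma). For each of these 3 genes the exact two-sided permutation test over the libraries gave p = 0.0179, the smallest value that this design allows, which restates that the groups do not overlap.

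The Ifitm1 call held under each of 22 alternative settings. Its transcript NM_026820 was at 74.0 and 131.6 FPKM (before scaling) in cKO 1 and cKO 2 and at 0 in every other library. The transcript NM_001112715 held 95.5% of Ifitm1 in cKO and 100% in control libraries. The Ifitm3 call was lost without control 2 (adjusted p = 0.0701) and without control 3 (adjusted p = 0.0555), and the Ifitm2 call was lost without control 1, control 2 or control 3 (adjusted p = 0.0542, 0.105 and 0.0794). Both calls were also lost with quantile normalization (adjusted p = 0.0758 for Ifitm3 and 0.0523 for Ifitm2) and with the stromal and muscle term (adjusted p = 0.066 for Ifitm3 and 0.0998 for Ifitm2), and that of Ifitm3 also without a filter on low values (adjusted p = 0.114). With the stromal and muscle term, Ifitm1, Isg20 and Ifi27 were the genes of the 42 that were still called. Without cKO 1 and cKO 2, whose titles stand apart, the log2 fold changes were 2.01 for Ifitm1 (adjusted p = 0.0213), 0.94 for Ifitm3 (adjusted p = 0.0412) and 0.63 for Ifitm2 (adjusted p = 0.0636). Ifitm genes are also expressed in leukocytes, and 2 of the 7 neutrophil markers tested, Retnlg and Il1r2, rose in cKO libraries. Most of the neutrophil marker sum was S100a8 and S100a9, which were not called (adjusted p = 0.0545 and 0.054, limma). The sum was 1270, 1195, 1993, 309 and 1798 FPKM in cKO libraries, against 213, 252 and 413 FPKM in control libraries. By this sum 4 of the 5 cKO libraries were well above the controls and cKO 4 was within their range. Each of the 7 tested markers was above its control mean in all 5 cKO libraries, cKO 4 included. In 2 of the 7 the cKO and control libraries did not overlap. The summed Ifitm level was 3043, 3818, 2512, 3856 and 3990 FPKM in cKO libraries, against 1615, 1388 and 1637 FPKM in control libraries. With the level of 8 pan-leukocyte markers as a term in the fit, the log2 fold changes were 1.97 for Ifitm1 (adjusted p = 0.0303), 1.04 for Ifitm3 (adjusted p = 0.0375) and 0.74 for Ifitm2 (adjusted p = 0.0715). That level, a mean log2(scaled FPKM + 1), was 2.43 to 3.70 in cKO and 2.22 to 2.74 in control libraries. It varied partly with the group, so this fit cannot separate leukocytes from genotype. The part of leukocytes in the Ifitm levels was otherwise not tested. Of the 8 markers, 7 had positive log2 fold changes, between 0.58 and 1.21. None of these 7 was called, with adjusted p between 0.0539 and 0.28 (limma). Laptm5 went the other way and was called lower (log2 fold change -1.02, adjusted p = 0.0436, limma). The median over the 8 was 0.93. Of 8 macrophage and monocyte markers tested, 4 had positive and 4 negative values, and none was called.

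Rsad2 encodes viperin, an enzyme that makes a chain-terminating nucleotide and restricts many viruses. Rsad2 was at 33.9, 67.7, 55.3, 48.5 and 35.2 FPKM in cKO libraries, against 11.8, 18.4 and 21.9 FPKM in control libraries. All 5 cKO libraries were above all 3 control libraries, and the log2 fold change was 1.41 ± 0.26 (adjusted p = 0.0111, limma). Isg20, an interferon-induced exonuclease that degrades single-stranded RNA, was at 122, 190.4, 123, 156 and 189.9 FPKM in cKO libraries, against 75.6, 55.7 and 56.4 FPKM in control libraries. The groups did not overlap, and the log2 fold change was 1.295 ± 0.193 (adjusted p = 0.00451, limma). The 3 Isg20 transcripts with values above 0 made up the gene as follows: NM_020583 held 43.4% of the mean FPKM in cKO and 51% in control libraries, NM_001291221 held 33.6% in cKO and 25.6% in control libraries, and NM_001113527 held 23% in cKO and 23.4% in control libraries. The Isg20 call held in all 22 alternatives, and the Rsad2 call was lost with the leukocyte term (log2 fold change 1.04, adjusted p = 0.0666) and with the stromal and muscle term (1.17, adjusted p = 0.0593).

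Ifi27, which encodes a small interferon-induced membrane protein of mitochondria, was the 1 gene of the 42 that fell. Its level was 34.6, 38.0, 38.6, 25.4 and 36.9 FPKM in cKO libraries, against 66.5, 70.8 and 67.7 FPKM in control libraries. The highest cKO library was well below the lowest control library, and the mean was 34.7 ± 5.41 FPKM in cKO and 68.3 ± 2.21 FPKM in control libraries. The log2 fold change was -0.97 ± 0.14 (adjusted p = 0.00384, limma), and the call held in all 22 alternatives. Both Ifi27 transcripts with values above 0 were lower: NM_026790 held 66.6% of the gene in cKO and 65% in control libraries. The Ifi27 gene lies inside a transcript of Ifi27l2a on the opposite strand over 6057 bp. Whether reads were assigned by strand is not stated, so reads of the overlapping pair cannot be told apart. Ifi27l2a itself was at 60.3 ± 19.7 FPKM in cKO and 68.2 ± 18.3 FPKM in control libraries (log2 fold change -0.21 ± 0.30, adjusted p = 0.672, limma).

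In 2 more genes the cKO and control libraries did not overlap, without a call. Over all tested genes, 24.6% had groups that did not overlap, 11.7% with cKO higher and 12.9% with cKO lower. Over the 42 genes 8 did (19%), 6 with cKO higher and 2 with cKO lower. Xaf1, a factor that binds the apoptosis inhibitor XIAP, was at 39.4, 38.4, 30.1, 51.5 and 20.6 FPKM in cKO libraries, against 17.8, 20.1 and 19.8 FPKM in control libraries. cKO 5 lay just above the controls and the other 4 well above them, and the log2 fold change was 0.81 ± 0.25 (adjusted p = 0.0628, limma). Without cKO 5 it was 0.99 (adjusted p = 0.013). The shorter Xaf1 transcript, NM_001291153, held 26.1% of the gene in cKO and 4.41% in control libraries, and was listed at 0 in control 2 and control 3. Irf9, the DNA-binding partner of STAT2, was at 39.7, 42.5, 34.3, 38.9 and 38.5 FPKM in cKO libraries, against 43.7, 45.8 and 43.4 FPKM in control libraries. The difference was small, with a log2 fold change of -0.19 ± 0.09 (adjusted p = 0.182, limma).

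**Figure D2:**
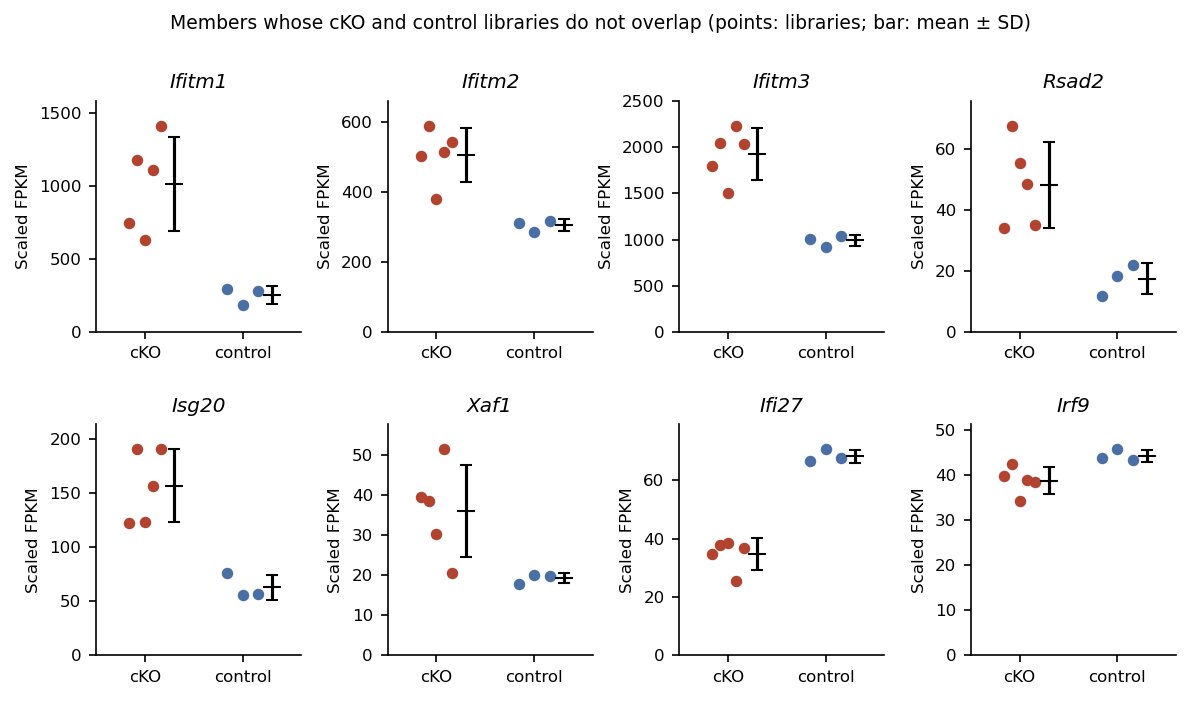
Each panel shows 1 gene, with scaled FPKM on the vertical axis from 0, cKO libraries (red points) on the left and control libraries (blue points) on the right, and the mean ± SD as a black bar (n = 5 and 3). In each of the 8 genes no point of one group falls within the range of the other. Ifitm1 shows the widest gap in fold, at a mean of 1014 FPKM in cKO and 252 FPKM in control libraries.

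Promoters of called genes in which letters read by interferon-activated factors were found are printed here, and windows of called genes without such letters are not. They were taken from RefSeq (GRCm38.p6), from 250 bases before to 50 bases after the transcription start, and 32 of the 42 genes had an entry. A pair of letter patterns was searched on both strands: GAAA followed by any 2 bases and a further GAAA, the core of the interferon-stimulated response element, and TTCNNNGAA, the core of the gamma-activated sequence. Capitals mark every match. The windows below are Rsad2 (chr12:26456403-26456702, minus strand), Ifitm2 (chr7:140955912-140956211, minus strand), Ifitm3 (chr7:141010695-141010994, minus strand) and the most upstream of 3 Isg20 windows (chr7:78913174-78913473, plus strand). Isg15 (chr4:156200769-156201068, minus strand), a gene that was not called, was added after its values were seen, because its window holds 3 overlapping matches.
Rsad2: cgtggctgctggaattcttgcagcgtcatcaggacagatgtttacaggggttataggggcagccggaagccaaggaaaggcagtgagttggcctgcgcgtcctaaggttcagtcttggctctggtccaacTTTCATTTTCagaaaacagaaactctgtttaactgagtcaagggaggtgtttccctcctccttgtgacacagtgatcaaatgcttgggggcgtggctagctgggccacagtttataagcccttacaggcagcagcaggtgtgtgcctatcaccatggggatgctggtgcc
Ifitm2: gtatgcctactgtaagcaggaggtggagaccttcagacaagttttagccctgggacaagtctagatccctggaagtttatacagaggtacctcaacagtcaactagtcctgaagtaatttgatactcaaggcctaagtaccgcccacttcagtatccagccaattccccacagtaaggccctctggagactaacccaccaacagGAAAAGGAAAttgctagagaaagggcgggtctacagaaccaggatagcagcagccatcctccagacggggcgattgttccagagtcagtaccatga
Ifitm3: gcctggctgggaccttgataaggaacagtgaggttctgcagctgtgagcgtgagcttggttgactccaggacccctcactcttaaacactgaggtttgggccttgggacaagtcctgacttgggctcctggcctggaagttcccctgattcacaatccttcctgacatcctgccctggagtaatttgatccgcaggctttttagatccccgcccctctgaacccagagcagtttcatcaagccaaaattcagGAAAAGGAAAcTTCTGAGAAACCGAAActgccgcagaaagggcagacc
Isg20: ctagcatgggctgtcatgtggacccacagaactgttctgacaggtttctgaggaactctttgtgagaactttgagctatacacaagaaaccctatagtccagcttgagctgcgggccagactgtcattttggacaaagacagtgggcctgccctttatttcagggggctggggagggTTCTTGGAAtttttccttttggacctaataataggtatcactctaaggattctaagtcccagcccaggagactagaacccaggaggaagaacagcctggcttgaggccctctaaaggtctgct
Isg15: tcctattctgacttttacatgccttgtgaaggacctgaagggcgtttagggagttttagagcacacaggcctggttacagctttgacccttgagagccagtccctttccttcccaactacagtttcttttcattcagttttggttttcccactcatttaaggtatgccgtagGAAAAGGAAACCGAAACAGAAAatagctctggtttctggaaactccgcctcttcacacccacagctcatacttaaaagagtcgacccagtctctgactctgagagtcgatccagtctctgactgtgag

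In Rsad2 the match is TTTCATTTTC, the first pattern read on the opposite strand, 120 bases before the start. In Ifitm2 the match GAAAAGGAAA lies 46 bases before the start. The Ifitm3 window holds GAAAAGGAAA and GAAACCGAAA just after the start, with TTCTGAGAA between them and overlapping GAAACCGAAA. Isg20 holds TTCTTGGAA, 73 bases before the start, and no match to the first pattern. The Ifitm1 window and the other 2 Isg20 windows held neither pattern, and Ifi27 had no entry. The single Ifitm1 window (chr7:140967826-140968125, plus strand) lies inside the gene, whose interval begins at base 140967429. The most upstream start of Ifitm1 was therefore not searched. The first pattern occurred in 19 of the 32 genes (59.4%), beside 3.99% of the 27025 genes in the promoter table. It occurred in 3 of 5 called genes and in 16 of 27 genes that were not called (59.3%). The second pattern occurred in 11 of the 32 genes (34.4%), beside 9.55% of all genes, and in 2 of 5 called and 9 of 27 uncalled genes. A match describes the letters of the window and does not show binding.

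None of the 5 transcription factors was called. Irf7, which amplifies type I interferon transcription, was at 192, 204, 159, 238 and 188 FPKM in cKO libraries, against 203, 231 and 231 FPKM in control libraries. The groups overlapped, since cKO 4 was above all controls and cKO 1, cKO 3 and cKO 5 were below them, and the log2 fold change was -0.18 ± 0.14 (adjusted p = 0.384, limma). Stat2 and Irf1, a factor of the interferon gamma response, had log2 fold changes of 0.10 and -0.04. Irf8, a factor of macrophages and dendritic cells, was the least abundant of the 42 genes, with a mean of 2.03 FPKM and an estimated 112 to 546 fragments per library, and its log2 fold change was 0.25 (95% interval -0.42 to 0.92). The 4 nucleic acid sensors were Ifih1 (MDA5), Ddx58 (RIG-I), Dhx58 (LGP2) and Zbp1, a sensor of Z-form nucleic acid. None was called, and their log2 fold changes lay between -0.33 and 0.34.

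The IFIT proteins bind foreign RNA and Eif2ak2 encodes PKR, a kinase that stops translation when it meets double-stranded RNA. None of these 4 genes was called. Ifit2, the one with the largest difference, was at 3.72, 7.13, 4.996, 9.90 and 5.49 FPKM in cKO libraries, against 2.19, 3.20 and 5.43 FPKM in control libraries. Control 3 lay within the cKO range, and the log2 fold change was 0.65 ± 0.30 (adjusted p = 0.168, limma). The 6 OAS genes, whose products make the second messenger of RNase L or are related to such enzymes, had log2 fold changes between -0.03 and 0.42, and none was called. Oas1a and Oas1g are close copies, so the split of reads between them is uncertain, and the same holds for Ifit3 and its near copy and for the Ifitm genes.

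Among the other effectors, the dynamin-like GTPases Mx1 and Mx2 had log2 fold changes of 0.11 (95% interval -0.78 to 1.01) and 0.03 (95% interval -0.88 to 0.94). These intervals include a change of up to nearly 1 log2 unit in either direction, so they bound these genes poorly. All of the Mx2 level was listed under NR_003508, a RefSeq name of the non-coding class, and NM_013606 was at 0 in all libraries. NR_003520, of the same class, held 33% of Mx1 in cKO and 36.7% in control libraries. The levels therefore do not measure protein-coding Mx RNA alone. Bst2, or tetherin, which holds budding virus at the cell surface, was at 513, 450.1, 255, 414 and 366 FPKM in cKO libraries, against 342, 287 and 325 FPKM in control libraries. cKO 3 was below all controls and the other 4 cKO libraries above them, and the log2 fold change was 0.29 ± 0.22 (adjusted p = 0.376, limma). Rtp4, Ifi35 and Ifi44 were not called, with log2 fold changes of 0.09, 0.15 and -0.34.

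Isg15 encodes a ubiquitin-like protein that is joined to other proteins. Its level was 190.5, 209, 168, 362 and 225 FPKM in cKO libraries, against 126, 174 and 169 FPKM in control libraries. cKO 3 fell within the control range and cKO 4 stood above the rest, and the log2 fold change was 0.52 ± 0.24 (adjusted p = 0.176, limma). Usp18, which removes ISG15 from proteins and dampens the type I receptor, was at 61.1, 66.1, 46.1, 113 and 70.0 FPKM in cKO libraries, against 45.8, 49.97 and 49.0 FPKM in control libraries. Here too cKO 3 lay within the control range and cKO 4 was highest, and the log2 fold change was 0.49 ± 0.24 (adjusted p = 0.194, limma). Herc6, the ligase that attaches ISG15 in mouse, had a log2 fold change of 0.19. The ADP-ribosyltransferase genes Parp9 and Parp14 had values of -0.07 and -0.09.

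Guanylate-binding proteins and immunity-related GTPases attack vacuoles that hold intracellular pathogens, and respond mainly to interferon gamma. All 5 such genes among the interferon-response genes had positive log2 fold changes, under each of the 4 scalings tried, and none was called. The scalings share the same libraries. Relatives tested outside these genes were mixed. Gbp6, Gbp9, Gbp10, Iigp1 and Ifi47 had log2 fold changes of -0.07, -0.28, -0.08, -0.27 and -0.02. Gbp4, Irgm2, Tgtp1 and Tgtp2 had values of 0.05, 0.04, 0.11 and 0.02. Only Gbp5 (1.19) of these relatives was called. Gbp2 was at 51.7, 37.1, 36.9, 86.8 and 126 FPKM in cKO libraries, against 22.7, 40.1 and 31.9 FPKM in control libraries. Control 2 was above cKO 2 and cKO 3, and the log2 fold change was 0.94 ± 0.41 (adjusted p = 0.155, limma). Gbp3 was at 51.3, 53.4, 36.7, 81.1 and 68.8 FPKM in cKO libraries, against 28.5, 45.6 and 30.7 FPKM in control libraries. cKO 3 was below control 2, and the log2 fold change was 0.70 ± 0.25 (adjusted p = 0.101, limma). Without cKO 3 it was 0.85 (adjusted p = 0.0327). Gbp7, Igtp and Irgm1 had log2 fold changes of 0.40, 0.21 and 0.21.

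**Figure D3:**
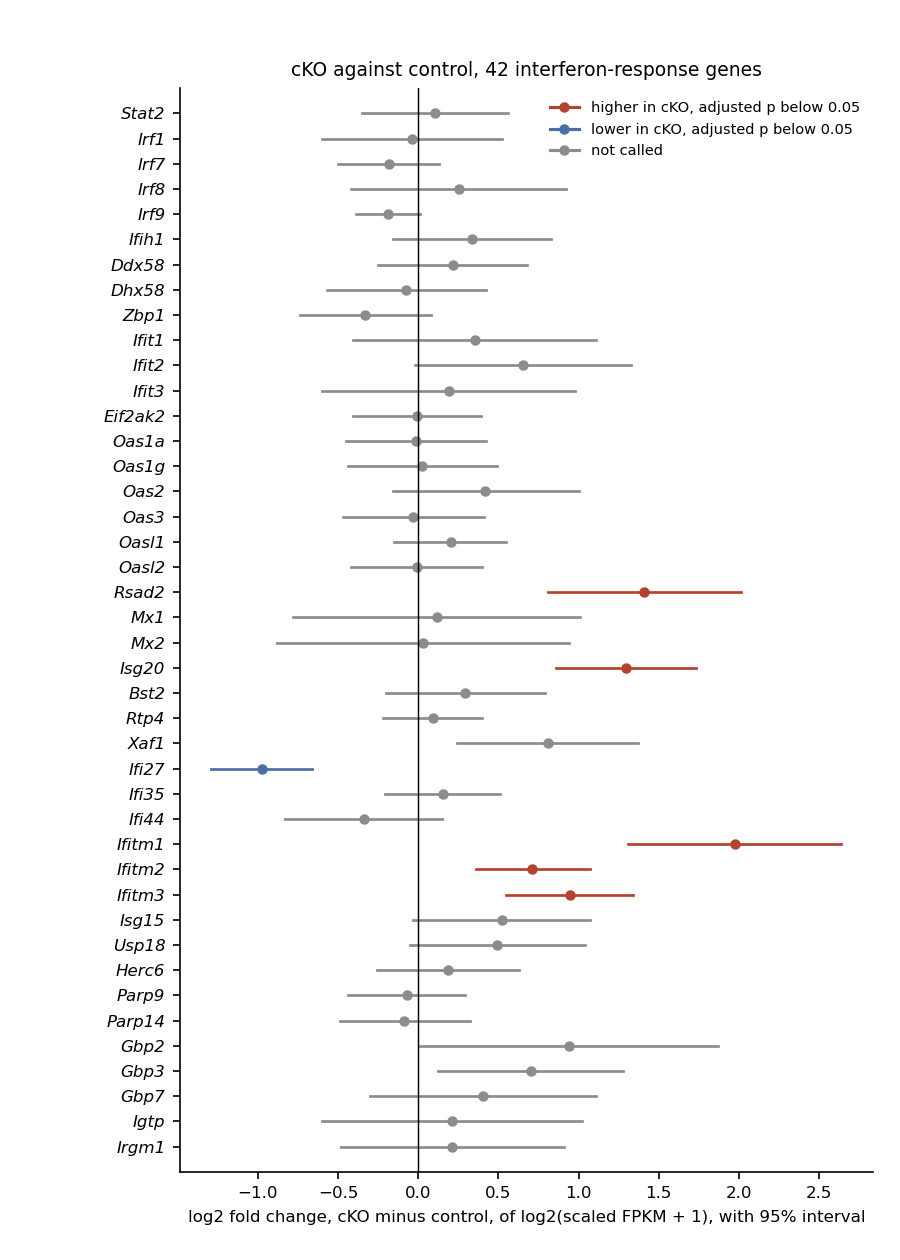
Points give the log2 fold change of each of the 42 genes, cKO minus control, on the log2(scaled FPKM + 1) scale, and lines the 95% interval of limma's fit. The 5 genes that rose are red, Ifi27, which fell, is blue, and the 36 uncalled genes are grey. The uncalled genes lie between -0.34 and 0.94, and in 25 of them the whole interval stays within 1 log2 unit of no change.

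The cKO libraries were spread more widely than the controls. cKO 4 held the highest value of all 8 libraries in 27 of the 42 genes, whereas it did so in 11.4% of all tested genes. In 36 of the 42 genes cKO 4 was above all 3 controls, beside 14, 25, 9 and 23 genes in cKO 1, cKO 2, cKO 3 and cKO 5. The share of all tested genes above all 3 controls was not computed. The median over the 42 genes of the log2 level relative to the control mean was -0.14, 0.29, -0.17, 0.65 and 0.15 in cKO libraries 1 to 5, and -0.12, 0.11 and -0.01 in control libraries 1 to 3. By this median cKO 1 and cKO 3 were just below the controls. Their Ifitm1, Ifitm2, Ifitm3, Rsad2 and Isg20 were above all controls, which the lack of overlap in these called genes already fixes. cKO 3 held the lowest value of all 8 libraries in 16 of the 42 genes, beside 11 for control 1 and 7 for cKO 1, the next highest counts. The share over all tested genes was not computed here either. The summed level of the 39 genes outside the Ifitm family was 2411, 2758, 1953, 3406 and 2754 FPKM in cKO libraries, against 2129, 2381 and 2260 FPKM in control libraries, and these groups overlapped. Among 11 markers of plasmacytoid and conventional dendritic cells, 8 averaged under 1 FPKM, among them Siglech, which marks the plasmacytoid cells that release type I interferon, at most 0.655 FPKM in cKO and 0.0962 FPKM in control libraries. The other 3 were Bst2, itself one of the 42 genes, Il3ra at 6.65 to 13.3 FPKM in cKO and 7.08 to 8.30 FPKM in control libraries, and Tcf4 at 3.38 to 5.11 FPKM in cKO and 3.59 to 3.95 FPKM in control libraries. None of these 3 was called. The summed 11 markers ranged from 272 to 529 FPKM in cKO and from 298 to 356 FPKM in control libraries, most of it Bst2. The summed 12 T and NK cell markers, cells that release interferon gamma, ranged from 3.44 to 15.8 FPKM in cKO and from 2.26 to 3.62 FPKM in control libraries, and 10 of the 12 averaged under 1 FPKM. In cKO 4 this sum was 3.62 FPKM. The part of these cells in the library pattern was not tested.

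**Figure D4:**
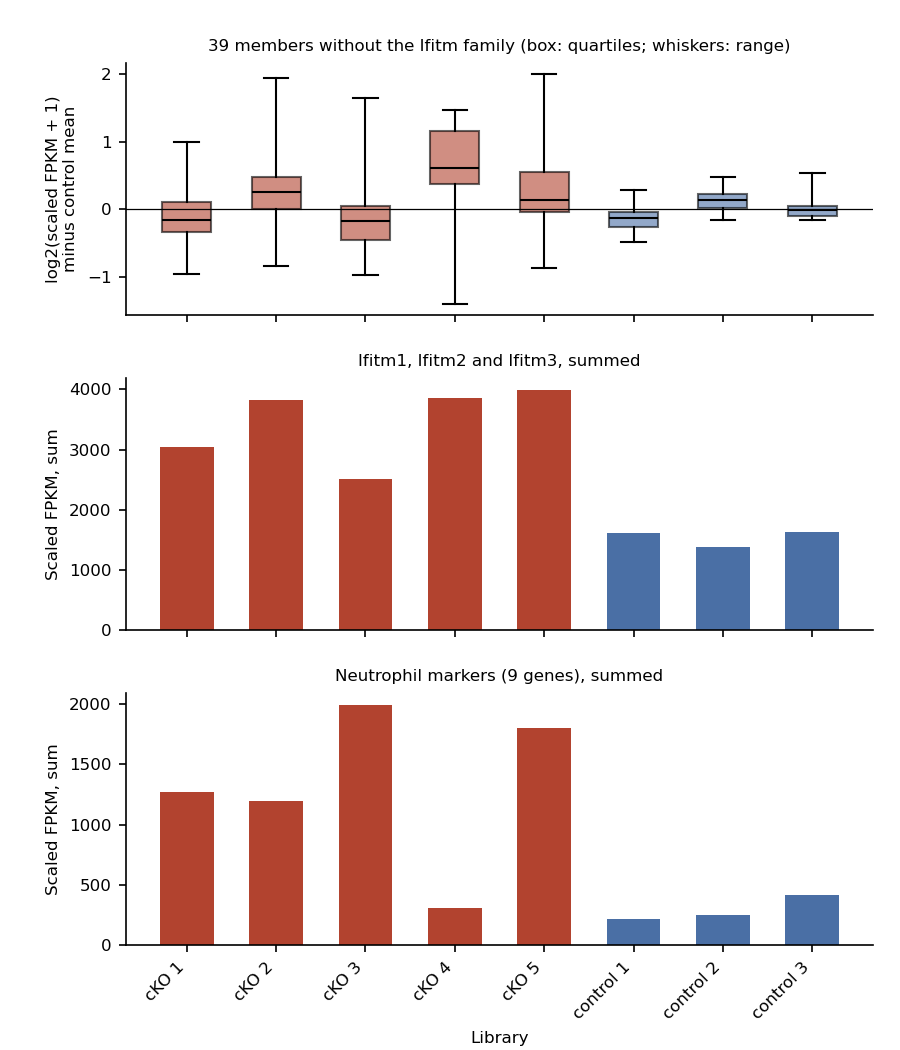
The 3 panels share the 8 libraries on the horizontal axis, cKO (red) left of control (blue). The top panel gives, for 39 interferon-response genes without the Ifitm family, log2(scaled FPKM + 1) minus the control mean (box, quartiles; whiskers, range), and the other panels give the summed scaled FPKM of the 3 Ifitm genes and of 9 neutrophil markers as bars from 0. The box of cKO 4 is the highest, and the Ifitm sum is above the controls in all 5 cKO libraries. The neutrophil sum, mostly S100a8 and S100a9, lies within the control range in cKO 4 (309 FPKM). Taken singly, which is not drawn, each of the 7 tested markers was above its control mean in cKO 4.

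Upstream of these genes, 21 interferon genes were measured, and 20 of them averaged under 1 FPKM, with 14 listed at 0 in all 8 libraries. The 1 interferon that could be tested was Ifne, interferon epsilon, at 86.6, 81.6, 40.8, 120 and 49.5 FPKM in cKO libraries, against 56.4, 33.2 and 29.9 FPKM in control libraries. cKO 3 and cKO 5 lay within the control range and cKO 4 was highest, and the log2 fold change was 0.86 ± 0.36 (adjusted p = 0.139, limma). The 6 receptor subunits were all expressed, and none was called, with log2 fold changes between -0.27 and 0.23. The type I subunits Ifnar1 and Ifnar2 were at 16.1 ± 0.651 and 48.1 ± 11.5 FPKM in cKO libraries, against 15.1 ± 0.135 and 39.9 ± 4.19 FPKM in control libraries. The type II subunits Ifngr1 and Ifngr2 were at 51.5 ± 14.6 and 153 ± 22.4 FPKM in cKO libraries, against 55.6 ± 4.65 and 184 ± 8.70 FPKM in control libraries. The type III subunits Ifnlr1 and Il10rb were at means of 6.42 and 36.4 FPKM in cKO libraries, against 6.93 and 34.9 FPKM in control libraries. Of 5 kinases and STATs tested, none was called. Tyk2, named after its values were seen, was at 10.1, 13.55, 9.66, 11.9 and 10.15 FPKM in cKO libraries, against 13.8, 15.1 and 14.3 FPKM in control libraries. These groups did not overlap, and the log2 fold change was -0.36 ± 0.12 (adjusted p = 0.0742, limma).

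Of 11 inhibitors of the pathway, 3 rose and 1 fell (36.4% called, beside 14.3% of all tested genes). The gene lists were chosen with earlier results of these data known, so such shares are descriptive only. Socs3, a JAK inhibitor that mainly restrains cytokines acting through STAT3, was at 47.5, 46.6, 34.7, 28.4 and 39.7 FPKM in cKO libraries, against 14.2, 11.7 and 13.2 FPKM in control libraries. The lowest cKO library was well above the highest control, and the log2 fold change was 1.505 ± 0.170 (adjusted p = 0.00136, limma). Socs1, the main brake on interferon gamma signalling, was at 2.49 ± 0.948 FPKM in cKO and 1.02 ± 0.304 FPKM in control libraries (log2 fold change 0.77 ± 0.21, adjusted p = 0.04, limma). Trim24, a transcriptional co-regulator, rose by 0.63 ± 0.13 on the log2 scale (adjusted p = 0.0165, limma), and Sh2b3, an adaptor that restrains JAK2, fell by 0.54 ± 0.15 (adjusted p = 0.04, limma). Of 12 genes of nucleic acid sensing tested, 2 rose and none fell (16.7% called, beside the same 14.3%). Tmem173, which encodes STING, was at 123.8 ± 8.52 FPKM in cKO and 75.9 ± 19.5 FPKM in control libraries (log2 fold change 0.73 ± 0.16, adjusted p = 0.0186, limma), and Rnf135, a ligase that activates RIG-I, had a log2 fold change of 0.48 ± 0.13 (adjusted p = 0.0405, limma). The Socs1, Sh2b3 and Rnf135 calls were lost when any 1 of the 3 controls was left out, and the Tmem173 and Trim24 calls without control 2 and without control 3. The Tmem173 call was also lost with quantile normalization, without cKO 1 and cKO 2 and with the leukocyte term, and the Trim24 call with the stromal and muscle term. In all, the Rnf135 call was lost in 15 of 22 alternatives, the Socs1 call in 11 of 21 and the Sh2b3 call in 10 of 21, while the Socs3 call held in all 22.

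**Figure D5:**
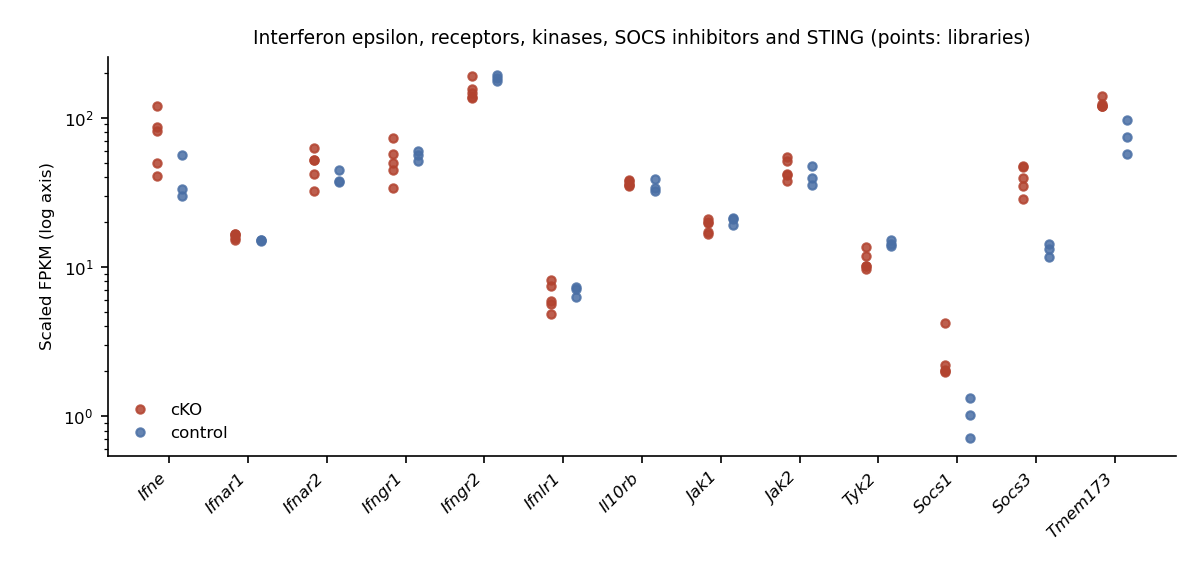
Scaled FPKM (log axis) of interferon epsilon, the 6 receptor subunits, 3 kinases, 2 Socs inhibitors and Tmem173, with each point a library, cKO in red on the left and control in blue on the right. The points of the 6 receptor subunits, Ifne, Jak1 and Jak2 overlap between the groups, while Socs3, Socs1 and Tmem173 (cKO higher) and Tyk2 (cKO lower) separate them without overlap.

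A further 58 interferon-stimulated genes outside the 42 were tested, of which 5 rose and none fell (8.62%, beside 14.3% of all tested genes called and 7.27% that rose), with a median log2 fold change of 0.05. Cxcl10, a chemokine for T cells, was at 39.9, 32.6, 31.3, 29.9 and 28.1 FPKM in cKO libraries, against 4.67, 3.32 and 5.48 FPKM in control libraries. The log2 fold change was 2.61 ± 0.15 (adjusted p = 4.7e-05, limma). Gbp5 was at 9.78, 16.2, 10.2, 11.1 and 15.7 FPKM in cKO libraries, against 4.40, 4.54 and 5.63 FPKM in control libraries, with a log2 fold change of 1.19 ± 0.18 (adjusted p = 0.00482, limma). Slfn2, of the Schlafen family, averaged 106 ± 18.0 FPKM in cKO and 51.9 ± 9.30 FPKM in control libraries, and Samhd1, an enzyme that depletes deoxynucleotides, 26.3 ± 4.86 FPKM in cKO and 15.1 ± 0.448 FPKM in control libraries. Their log2 fold changes were 1.02 ± 0.16 and 0.74 ± 0.15 (adjusted p = 0.00588 and 0.0141, limma), and the Samhd1 call was lost without control 2, without control 3, with TPM and with either cell term. In Cxcl10 and Gbp5, as in the Ifitm genes, Rsad2 and Isg20, the groups did not overlap, so every cKO library stood above all controls. The most abundant genes of that list, Plac8 and Lgals3bp, had log2 fold changes of 0.39 and 0.03 and were not called.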

How the data were processed

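RNA was converted to cDNA with NuGEN Ovation RNA-Seq System V2 (random and poly-dT priming) and sequenced on an Illumina HiSeq, per the labels' protocols. The submitters' processing notes name bcl2fastq 1.8.3, TopHat, Cufflinks and mm10; other versions, the annotation and strand use were not given there. The authors deposited FPKM per transcript with confidence bounds, and a coverage column (a signal value) that was not used, per the file headers. FPKM of 34535 transcripts were summed per symbol and 15 genes with a status other than OK were left out, none of them an interferon-response gene. Libraries were scaled by median ratio (factors 0.924 to 1.06). Genes with at least 1 FPKM in 3 libraries were tested with limma 3.58.1 (R 4.3.3, variance trend, two-sided, Benjamini-Hochberg) on log2(scaled FPKM + 1), which understates changes of low genes; the script was checked on simulated data. FPKM are not counts, so no count test was used. The 42 genes and the gene lists were chosen with earlier results of these data known; 4 listed genes had no row. Genes named with values were those called, those without overlap, the 6 most abundant, the 4 next largest changes and, per list, up to 4 called and the 2 most abundant. Alternatives changed scaling, pseudocount, filter, status, variance model, libraries, title series and cell make-up terms.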

Additional observations from a re-analysis of the deposited data

Results flagged for a closer look

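Among 65 genes examined (the 42 interferon-response genes and genes of the related lists), 6 had 1 cKO library standing apart from the other 4, with a gap to its nearest neighbour of more than 0.71 of the group's whole range. Chance flags about 1 in 20 such groups. In cKO 4, Ifih1 was at 19.0 FPKM against 9.08 to 11.2 FPKM in the other cKO libraries (gap 0.790 of the range), Eif2ak2 at 51.6 FPKM against 30.4 to 34.1 FPKM (0.824), and Oas3 at 54.7 FPKM against 29.4 to 36.4 FPKM (0.723). In cKO 5, Irf1 was at 117 FPKM against 53.3 to 68.7 FPKM (0.756), Socs1 at 4.18 FPKM against 1.99 to 2.22 FPKM (0.894), and Tmem173 at 138.7 FPKM against 118.8 to 123 FPKM (0.790).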

How the results depend on the processing

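Of the called genes, 6 interferon-response genes and 10 of the related lists were followed through 22 alternatives (21 for Socs1 and Sh2b3), and none of these 16 changed direction. Cmpk2, Ifitm6, Retnlg, Il1r2 and Laptm5 were not followed. Counts of all genes that rose and fell were 823 and 790; they were 510 and 1662 with TPM (where the median log2 fold change of all genes was -0.20 in place of -0.005), 1793 and 1733 with array weights, 377 and 308 with the stromal and muscle term, 453 and 428 with the leukocyte term, and 238 to 935 and 176 to 892 without 1 library, lowest without control 2 and without control 3. Of the interferon-response genes, 5 rose; 3 did with quantile normalization or the leukocyte term, 2 with the stromal and muscle term, and 3 to 6 without 1 library (3 without control 2 and without control 3). The 1 that fell became 2 with TPM and with quantile normalization, where Irf9 was added (adjusted p = 0.031 and 0.0484). Of the related lists, 10 genes rose; 5 did with either cell term and 4 to 11 without 1 library (5 without control 2, 4 without control 3). The 1 that fell, Sh2b3, became 2 without scaling or without a variance trend, 3 with quantile normalization, 5 with TPM, 6 with array weights, 0 with no filter, with a filter at 5 FPKM, with the title series as a term or with the stromal and muscle term, and 0 to 2 without 1 library. At the filter of 5 FPKM Sh2b3, at most 3.77 FPKM in any library, was not tested. Ifitm3 lost its call without a filter, where its log2 fold change was still 0.95 and more genes were tested (adjusted p = 0.114). The permutation p of Ifitm2 was 0.0286 to 0.0571 without 1 library and that of the other 5 called genes 0.0286 to 0.0476. Reversed values, all of uncalled genes, were -0.11 for Ifnar1, -0.14 for Il10rb, -0.064 for Jak2 and -0.18 for Lgals3bp with TPM, -0.033 for Il10rb and -0.25 for Lgals3bp with quantile normalization, -0.006 (array weights) and -0.01 (stromal and muscle term) for Il10rb, 0.003 (without control 1; -0.161 to 0.003 without 1 library) and 0.01 (leukocyte term) for Stat3, -0.002 for Cish without control 2 (-0.002 to 0.680 without 1 library), 0.016 for Trim25 with the leukocyte term, and for Lgals3bp -0.037 without scaling, -0.004 without cKO 5, -0.018 without control 1 (-0.018 to 0.094 without 1 library) and -0.086 with the leukocyte term. The cause was not tested. No paired analysis was possible because the labels give no replicate numbers, and numbers here follow accession order. With 3 controls, the 95% intervals of 25 of the 36 uncalled interferon-response genes stay within 1 log2 unit of no change, and those of the others do not.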

Other observations

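Around the Ifitm genes on mouse chromosome 7 lies Ifitm6 (chr7:141015812-141016892), which was chosen after its values were seen and which is known from myeloid cells. Ifitm6 rose to 35.5, 55.1, 67.1, 69.2 and 224.7 FPKM in cKO libraries, against 6.59, 7.14 and 10.9 FPKM in control libraries (log2 fold change 3.04 ± 0.50, adjusted p = 0.00669, limma; higher in 5 of 5 cKO libraries). Ifitm5, at the other end of the same cluster, a gene of bone-forming cells, was at 1.51 ± 0.481 FPKM in cKO and 0.695 ± 0.201 FPKM in control libraries (adjusted p = 0.0638, limma), and Ifitm10 and Ifitm7 were below 1 FPKM in all libraries. The neutrophil marker sum, mostly S100a8 and S100a9, was 309 to 1993 FPKM in cKO and 213 to 413 FPKM in control libraries. The part of myeloid cells in the Ifitm6 level was not tested.

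Rsad2 (chr12:26442743-26456452) lies next to Cmpk2 (chr12:26469215-26479837), a mitochondrial nucleotide kinase gene on the opposite strand, which was also named after its values were seen. Cmpk2 was at 13.6, 24.7, 21.5, 27.6 and 19.1 FPKM in cKO libraries, against 6.62, 12.9 and 9.57 FPKM in control libraries. Like Rsad2, it had no cKO library within the control range, and its log2 fold change was 1.06 ± 0.25 (adjusted p = 0.0246, limma). Of other interferon regulatory factors outside the 42 genes, Irf2, Irf3 and Irf5 were not called, with log2 fold changes of 0.20, -0.16 and 0.19, and Irf4 was near 0.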
